A study of Mus musculus with 10 samples.

Results

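Interferon response and antigen presentation genes were followed in mouse erythroleukemia (MEL) cells, a transformed mouse line of red cell precursors, with and without tagged BCL11A. The set holds 37 genes chosen by name, and each was read through its brightest probe set, the one with the highest mean intensity over all 10 arrays. Of the 37 genes, 35 had a probe set annotated to them alone, out of 18193 genes with such a probe set in the table. Ifi44 had none, and the 1 probe set of Isg15 is shared with Gm9706, so neither was given a value of its own. All lines carry the bacterial biotin ligase BirA. The parental Mel-BirA line (labelled parental here) carries nothing further and was measured on 2 arrays. The subclones FBB1.11, FBB1.10, FBB1.7 and FBB1.5 stably express BCL11A with a FLAG tag and a biotin tag in addition and were measured on 2 arrays each, with no treatment or time point named. Each subclone is 1 clone, so a difference of a single subclone from parental can belong to the clone as well as to the construct, and these cannot be told apart. BCL11A is a zinc finger repressor known for its part in silencing fetal globin genes.

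Interferons are cytokines that cells release on sensing viral nucleic acid. They act through receptor-bound JAK kinases, which activate STAT proteins. Complexes that contain STAT2 and IRF9 then bind the interferon-stimulated response element, ISRE, and interferon gamma acts through the gamma-activated site, GAS. The genes switched on in this way include RNA sensors, antiviral effectors and the class I antigen presentation machinery, in which the TAP1 and TAP2 transporter moves peptides into the endoplasmic reticulum, tapasin (Tapbp) helps load them, and class I chains with beta-2 microglobulin carry them to the cell surface. Many of these genes are also expressed at a low level without interferon.

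The arrays had median intensities of 29.6 to 31.6. Of 11 measured erythroid markers 9 lay above the table median of 30.5, the median of all 45101 probe sets on all arrays, which stands in here for a background level because the table holds no detection calls. Gata1, Klf1, Epor and Tfrc were bright on all 10 arrays, whereas Slc4a1 and Hemgn lay at or below the median on all of them. Of the 7 Bcl11a probe sets, 1 had a mean intensity of 37.8 ± 2.69 in parental cells (SD, n = 2 arrays, as for all line means here), 213 ± 45.8 in FBB1.11, 199 ± 48.2 in FBB1.10, 63.7 ± 1.88 in FBB1.7 and 79.0 ± 23.9 in FBB1.5. The 3 brightest read 273 to 329.8 in parental cells and did not show this pattern; 1 of them read 233 ± 5.02 in FBB1.7 and 377 ± 38.1 in FBB1.11. Whether any given Bcl11a probe set detects transgene RNA was not analysed. RNA integrity was read from the actin controls: the 3' signal divided by the 5' signal was 1.80 on parental 2 and 1.47 on FBB1.5 1, against 1.06 to 1.22 on the other 8 arrays.

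Averaged over the 10 arrays, 21 of the 35 measured genes lay above that median (60.0%, beside 63.6% of all genes with a probe set), and 12 lay above the upper quartile of the table, 102. All 6 genes of class I presentation were above the median, as were 5 of 7 transcription factors, 4 of 8 RNA sensing genes and 6 of 14 measured effectors. The 14 genes not above it were Dhx58, Ddx58, Irf7, Irf8, Oas1a, Oasl2, Ifit1, Ifit2, Mx1, Mx2, Gbp2, Gbp3, Usp18 and Cxcl10. On single arrays, 16 genes were above the median on all 10, 7 on some and 12 on none. Just above the threshold stood Ifit3, with a mean of 31.3, and Ifih1 with 34.0, and just below it Dhx58 with 29.9 and Irf7 with 21.8. The number of genes above the median was 21 in parental cells, 19 in FBB1.11, 22 in FBB1.10, 21 in FBB1.7 and 22 in FBB1.5. Intensities of different probe sets depend on the probes, so the position against the median is a description and not an order of transcript levels.

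**Figure D1:**
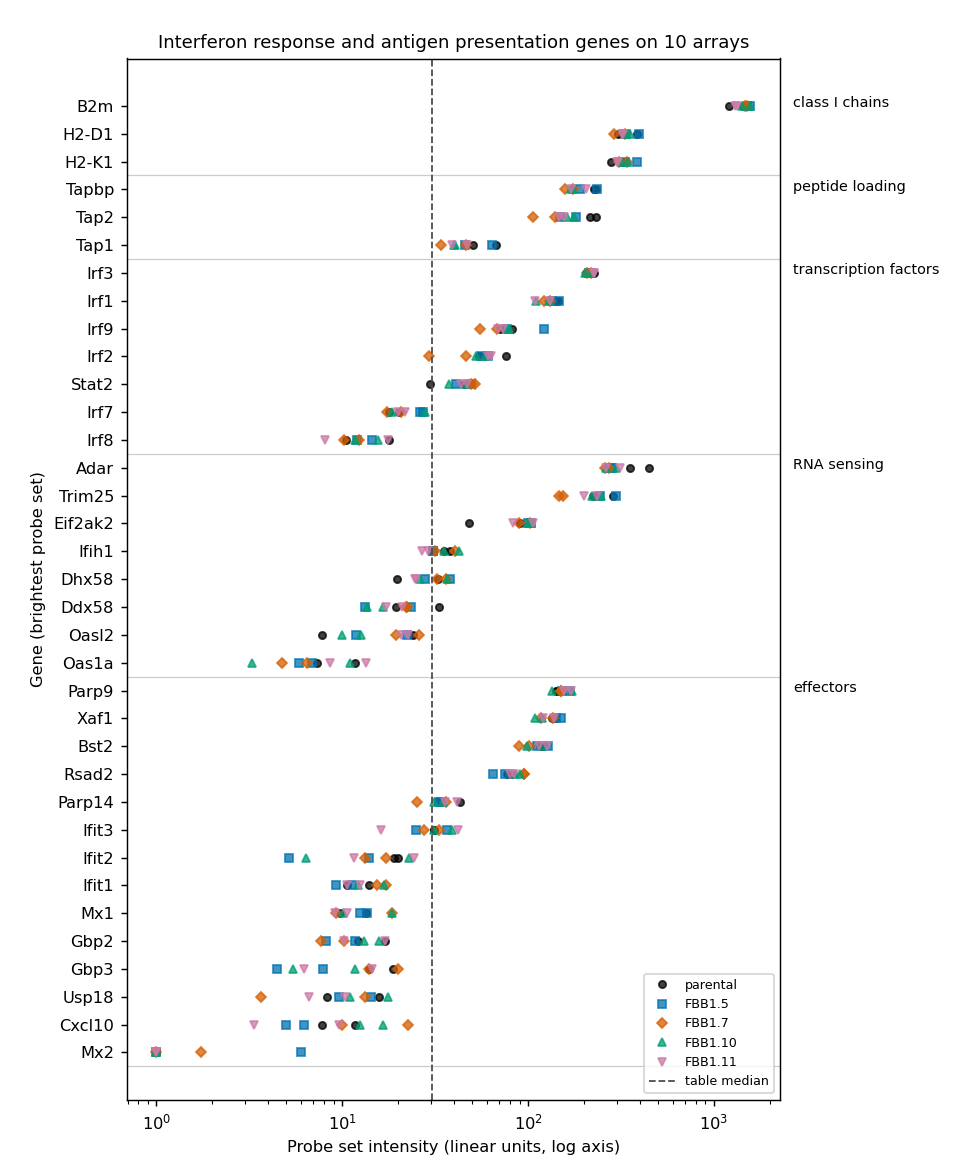
Intensity of the brightest probe set of each of the 35 measured genes on all 10 arrays (log axis), grouped by role, with the table median as a dashed line. The upper quartile of the table is not drawn. The class I chains sit above the upper quartile on every array, whereas Ifit1, Ifit2, Mx1, Mx2, Oas1a and Usp18 stay below the median on every array.

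The class I chains were bright in every line. B2m, beta-2 microglobulin, ranged from 1205 to 1570.1 over the 10 arrays, H2-K1 from 278 to 385 and H2-D1 from 291 to 394. H2-K1 and H2-D1 encode the classical class I heavy chains, and their probe sets are mostly of a kind that can cross-hybridise with near-identical class I genes, so the gene behind these intensities is uncertain. Tap1 and Tap2, the peptide transporter subunits, ranged from 34.2 to 66.9 and from 107 to 231, and Tapbp, tapasin, from 159 to 234. Of the transcription factors, Irf3, which acts downstream of RNA and DNA sensors, ranged from 201 to 227. Irf1, a factor induced by interferon gamma, ranged from 108 to 147, Irf9, which binds the ISRE together with STAT2, from 55.1 to 122, and Stat2 from 29.8 to 51.7. Irf2, a repressor that competes with IRF1, ranged from 29.3 to 75.7. Irf7, which amplifies the type I interferon response, stayed at 17.4 to 27.9 and Irf8, a factor of myeloid and B cells, at 8.04 to 17.8, both below the table median on every array.

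Among the RNA sensing genes, Adar, Trim25 and Eif2ak2 were above the table median on every array, and the oligoadenylate synthetase family genes of the set, Oas1a and Oasl2, lay below it on every array. Their relatives Oas2 and Oasl1, which are not in the set, ranged from 143 to 205 and from 129 to 209.6. Adar, the RNA-editing adenosine deaminase, ranged from 261 to 450.1, Trim25, the ubiquitin ligase that acts with RIG-I, from 146 to 297, and Eif2ak2, the RNA-activated kinase PKR, from 48.0 to 106. Ifih1, the long-RNA sensor MDA5, stood close to the median at 26.7 to 42.7. Its relatives Ddx58 (RIG-I) and Dhx58 (LGP2) ranged from 13.3 to 33.0 and from 19.8 to 37.8. Oas1a stayed at 3.26 to 13.3 and Oasl2 at 7.82 to 25.9. A low intensity in a bulk culture can come from fewer expressing cells or from less RNA per cell, and these cannot be told apart.

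The effectors split in the same way. Xaf1, an apoptosis-promoting gene, ranged from 109 to 151, Parp9, an ADP-ribosyltransferase family member, from 135 to 171, and Bst2, tetherin, which holds budding virions at the cell surface, from 89.6 to 128. Rsad2, viperin, ranged from 65.0 to 95.4 and both of its bright probe sets were above the median on every array. Parp14 (25.1 to 43.2) and Ifit3 (16.2 to 42.1) lay about the median. On no array did any of the following pass the median: Ifit1 (9.29 to 17.1) and Ifit2 (5.15 to 24.4), which bind viral RNA; Mx1 (9.18 to 18.6) and Mx2 (1.00 to 5.99), dynamin-like antiviral GTPases; Usp18 (3.64 to 17.7), which removes ISG15 from proteins; Gbp2 (7.66 to 17.1) and Gbp3 (4.45 to 20.0), guanylate-binding proteins; and Cxcl10 (3.34 to 22.5), an interferon-induced chemokine. The probe set shared by Isg15 and Gm9706 read 19.2 to 38.6. Differences between lines were not tested in these dim genes.

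Interferon response motifs were found in promoters of the set both for genes above the table median and for genes not above it. The searched ISRE core was GAAANNGAA on either strand, and the searched GAS core was TTCNNNGAA, which is its own reverse complement; matches of both may overlap. RefSeq promoter windows of assembly GRCm38.p6, from 250 bases before to 50 bases after a transcript start, were matched by symbol for 30 of the 37 genes. The ISRE core was found for 18 of these 30 genes (60.0%), beside 9.76% of all 27025 genes and 8.56% of all 32851 windows of that length. It was found for 10 of 18 genes above the table median and for 6 of 10 not above it, the remaining pair being Isg15 and Ifi44. The GAS core was found for 8 of 30 genes (26.7%), beside 9.55% of all genes and 8.30% of all windows, with 5 of 18 above and 3 of 10 not above the median. A match describes the letters only, and no binding was measured. The windows below are given on the strand of the gene, 5′ to 3′, with the letters of ISRE core matches in capitals. They show genes with 1 to 3 matches that stayed below the median (Ifit1, Oas1a, Gbp2), genes with matches that were above it on every array (Bst2, Rsad2, B2m), and Trim25, which was lower in FBB1.7.
Ifit1: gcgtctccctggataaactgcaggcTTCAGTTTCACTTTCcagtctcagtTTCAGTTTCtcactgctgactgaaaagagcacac
Oas1a: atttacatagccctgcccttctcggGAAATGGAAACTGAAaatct
Gbp2: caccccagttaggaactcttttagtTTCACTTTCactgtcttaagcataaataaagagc
Bst2: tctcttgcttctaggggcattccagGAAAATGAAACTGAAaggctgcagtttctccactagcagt
Rsad2: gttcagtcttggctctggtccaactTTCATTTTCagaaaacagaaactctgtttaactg
B2m: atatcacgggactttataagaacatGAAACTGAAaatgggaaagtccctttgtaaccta
Trim25: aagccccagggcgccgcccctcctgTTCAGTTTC
In GRCm38.p6 the windows lie at chr19:34640755-34640838 (plus strand) for Ifit1, chr5:120907526-120907570 (minus) for Oas1a and chr3:142620580-142620638 (plus) for Gbp2. Those of Bst2, Rsad2 and B2m lie at chr8:71537563-71537627 (minus), chr12:26456538-26456596 (minus) and chr2:122147523-122147581 (plus). That of Trim25 lies at chr11:88999369-88999402 (plus). All lie upstream of the annotated transcript start by choice, because promoters with a match that reaches past it were not considered for printing. Such matches were found for Adar, Ddx58, Eif2ak2, Ifi44 and Ifih1. Ifit1 holds 3 overlapping or neighbouring matches and read 9.29 to 17.1 over the arrays, whereas B2m holds 1 match and read 1205 to 1570.1. No ISRE core was found in the windows of H2-K1, H2-D1, Tap1, Tapbp, Irf1, Irf3, Irf9 or Xaf1, which were above the median. None was found either for Irf7, Irf8, Ifit2 or Oasl2, which were not above it.

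Each subclone was then set against the parental line to ask which of these genes differ in cells with the tagged protein, on the log2(intensity + 16) scale with limma and Benjamini-Hochberg adjustment over all 25061 tested probe sets. Of the 35 measured genes, 22 passed the filter for this test (above the table median on at least 2 arrays), namely the 21 above the median and Dhx58. In FBB1.7, 5 of the 22 were lower than in parental cells and 0 were higher: Tap2, Trim25, Adar, Irf2 and Tapbp. This is 22.7% of the tested genes of the set, where 10.7% of all 12496 tested genes passed in this subclone, 6.39% as lower and 4.29% as higher. In the other subclones, FBB1.5, FBB1.10 and FBB1.11, none of the 22 passed, against 2.38%, 1.81% and 0.184% of all genes. At an unadjusted p under 0.05, limma had 5, 5 and 4 of the 22 in these subclones, or 8 in FBB1.7, where the shares of all genes were 16.1%, 14.7%, 11.9% and 25%. The median log2 difference over the 22 genes was -0.12 in FBB1.7, where 15 of 22 were below 0, against -0.02 over all tested genes. It was -0.06 in FBB1.11, -0.02 in FBB1.10 and 0.00 in FBB1.5, with 13, 11 and 11 of 22 below 0. The 4 comparisons share the same 2 parental arrays and are therefore not independent of each other. The labels do not say whether paired arrays stem from different cultures, and the p-values therefore cover only the spread between arrays, which may be technical.

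**Figure D2:**
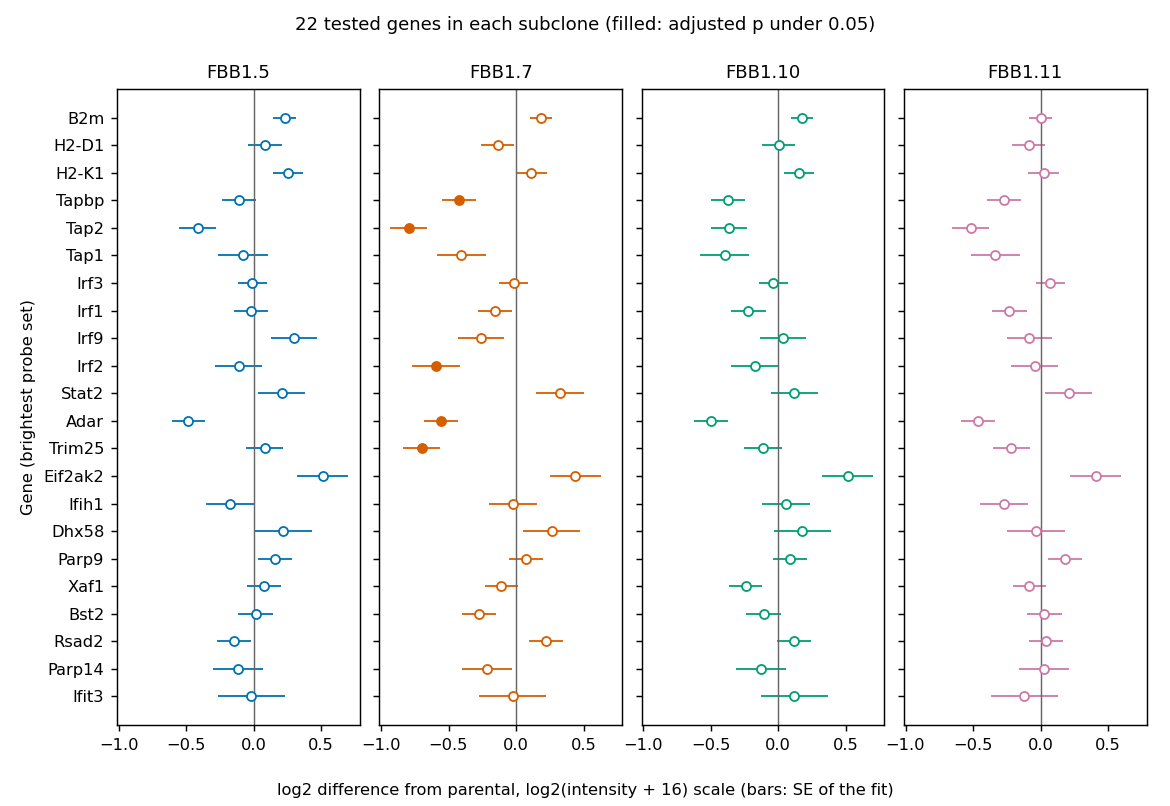
Log2 difference from parental, on the log2(intensity + 16) scale, of the 22 tested genes in each subclone, with the SE of the fit as bars and filled points where the adjusted p is under 0.05. Filled points appear in the FBB1.7 panel only, at Tap2 (-0.79), Trim25 (-0.70), Irf2 (-0.59), Adar (-0.55) and Tapbp (-0.42).

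By the brightest probe set of each gene, peptide loading was the role in which all measured genes stood below parental in every subclone. A dimmer Tapbp probe set did not share this. Its line means were 69.8 in parental cells, 70.5 in FBB1.11, 75.9 in FBB1.10, 59.6 in FBB1.7 and 74.3 in FBB1.5. Tap2 read 231 and 216 on the parental arrays, 147 and 156 in FBB1.11, 163 and 177 in FBB1.10, 139 and 107 in FBB1.7 and 181 and 148 in FBB1.5. Both parental arrays were above all 8 tagged arrays, and both FBB1.7 arrays were below the other 8. In FBB1.7 Tap2 was 1.74-fold lower (log2 difference -0.79 ± 0.14, SE, limma's adjusted p = 0.0021), and this call held in every alternative run, with an adjusted p of at most 0.040. The other subclones did not pass, with -0.52 in FBB1.11 (adjusted p = 0.14), -0.36 in FBB1.10 (0.21) and -0.42 in FBB1.5 (0.15). The F test between the 4 subclones did not pass for Tap2 (adjusted p = 0.18), so a difference between FBB1.7 and the other subclones was not shown.

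Tapbp read 225 and 233 on the parental arrays, 170.3 and 206 in FBB1.11, 175 and 171 in FBB1.10, 175 and 159 in FBB1.7 and 234 and 191 in FBB1.5. The FBB1.7 and FBB1.10 arrays all lay below both parental arrays, while FBB1.5 overlapped them. In FBB1.7 Tapbp was 1.34-fold lower (-0.42 ± 0.13, adjusted p = 0.047), and the dimmer of its 2 tested probe sets stood at -0.16 (adjusted p = 0.68). This call lies next to the threshold and ended in 13 of 19 alternatives, among them each of the parental and FBB1.7 arrays left out (adjusted p 0.084 to 0.24), each array of FBB1.10 or FBB1.11 left out (0.055 to 0.064) and the replicate number as a block (0.056). Tap1 read 50.4 and 66.9 on the parental arrays, 46.9 and 39.0 in FBB1.11, 40.1 and 40.6 in FBB1.10, 46.5 and 34.2 in FBB1.7 and 64 and 45.6 in FBB1.5. Its difference of -0.41 in FBB1.7 did not pass (adjusted p = 0.19).

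The class I chains passed in no subclone. B2m read 1431 and 1205 on the parental arrays, 1327 and 1301 in FBB1.11, 1555 and 1417 in FBB1.10, 1479 and 1511 in FBB1.7 and 1570.1 and 1512 in FBB1.5. Its log2 difference from FBB1.11 to FBB1.5 in this order was 0.00, 0.18, 0.19 and 0.23 (adjusted p = 0.997, 0.34, 0.19 and 0.20). Without parental 1, whose B2m value is the higher of the pair, B2m passed in FBB1.7 (adjusted p = 0.033) and FBB1.5 (0.036). The line mean of H2-K1 was 299 ± 29.7 in parental cells, the subclone means lay between 303 and 359, and its lowest adjusted p against parental was 0.30. A dimmer H2-K1 probe set instead stood below parental in FBB1.11 (-0.27, limma's adjusted p = 0.35), FBB1.10 (-0.29, 0.22) and FBB1.7 (-0.09, 0.67), and at 0.05 in FBB1.5 (0.89). A dimmer probe set annotated to H2-D1 differed between the subclones (F test, adjusted p = 0.0496), from 142 ± 12 in FBB1.10 to 233 ± 2.67 in FBB1.7, while the brightest H2-D1 probe set did not (adjusted p = 0.62). Against parental, that dimmer probe set stood at -0.48 in FBB1.10 (limma's adjusted p = 0.13). Others of H2-D1 stood there at -0.53 (0.076) and -0.50 (0.058), and the brightest at 0.00, so the probe sets of these genes disagree.

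Of the transcription factors, Irf2 passed in FBB1.7. Irf2 read 54.2 and 75.7 on the parental arrays, 62.8 and 60.8 in FBB1.11, 58.4 and 52.2 in FBB1.10, 29.3 and 46.5 in FBB1.7 and 60.9 and 55.7 in FBB1.5. Both FBB1.7 arrays were below the other 8, and 1 of them lay below the table median. In FBB1.7 Irf2 was 1.51-fold lower on the scale of the test (log2 difference -0.59 ± 0.18, adjusted p = 0.045). With 1 array that dim, the size of the fold is uncertain. The call ended in 11 of 18 alternatives, among them without parental 2 (adjusted p = 0.29), without FBB1.7 1 (0.37), and without any 1 of the arrays of FBB1.5, FBB1.10 and FBB1.11 (0.051 to 0.065). Irf9 was also lowest on both FBB1.7 arrays, at 67.9 and 55.1 against 69.0 to 122 on the other 8, and did not pass (-0.26, adjusted p = 0.38). Irf1, Irf3 and Stat2 passed in no comparison.

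Among the RNA sensing genes, Trim25 was lower in FBB1.7 and differed between the subclones. Trim25 read 287 and 224 on the parental arrays, 199.6 and 234 in FBB1.11, 245 and 222 in FBB1.10, 146 and 154 in FBB1.7 and 297 and 243 in FBB1.5. The FBB1.7 pair stood below the other 8 arrays, which overlapped each other. In FBB1.7 Trim25 was 1.62-fold lower (-0.70 ± 0.14, adjusted p = 0.0051), and in the other subclones the difference was -0.22 in FBB1.11 (0.58), -0.11 in FBB1.10 (0.76) and 0.08 in FBB1.5 (0.84). It was the only 1 of the 22 genes that differed between the 4 subclones in the moderated F test, with an adjusted p of 0.0114, where 8.07% of all tested genes did. This F test call ended without the trend of the variance on intensity. The call in FBB1.7 ended without FBB1.7 1 (adjusted p = 0.058), and the F test call without FBB1.7 1 (0.12) or FBB1.7 2 (0.071).

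A second Trim25 probe set gave the same picture and a dimmer one did not. The second read 263 and 324 on the parental arrays, 212 and 226 in FBB1.11, 207 and 216 in FBB1.10, 149 and 135 in FBB1.7 and 297 and 220.3 in FBB1.5. It was 1.95-fold lower in FBB1.7 (-0.97 ± 0.14, adjusted p = 0.00058) and also differed between the subclones (adjusted p = 0.0116). The dimmer one had 42.5 ± 16.8 in parental cells and 50.2 ± 0.290 in FBB1.7 (log2 difference 0.21, adjusted p = 0.57).

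Adar separated the parental arrays from all tagged arrays. Adar read 355 and 450.1 on the parental arrays, 263 and 311 in FBB1.11, 297 and 262 in FBB1.10, 274 and 261 in FBB1.7 and 279.9 and 283 in FBB1.5. Every tagged array lay below both parental arrays, and the subclones overlapped each other (F test, adjusted p = 0.95). In FBB1.7 Adar was 1.47-fold lower (-0.55 ± 0.13, adjusted p = 0.012), and it stood at -0.46 in FBB1.11 (0.15), -0.50 in FBB1.10 (0.061) and -0.48 in FBB1.5 (0.065). Parental 2, the array with the highest Adar value, also had the actin ratio of 1.80. Without it the FBB1.7 difference was -0.39 (adjusted p = 0.11), and with the actin ratio of each array as a covariate it was -0.38 (adjusted p = 0.22). The FBB1.7 call also ended without FBB1.7 1 (0.066) or FBB1.7 2 (0.088). Without parental 1 Adar passed in the other subclones as well, with an adjusted p of 0.026 in FBB1.11, 0.011 in FBB1.10 and 0.016 in FBB1.5. The FBB1.7 call of Adar ended as well without the trend of the variance on intensity. The other Adar probe sets tested did not pass in FBB1.7, at 0.19 (adjusted p = 0.54) and -0.50 (adjusted p = 0.30).

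**Figure D3:**
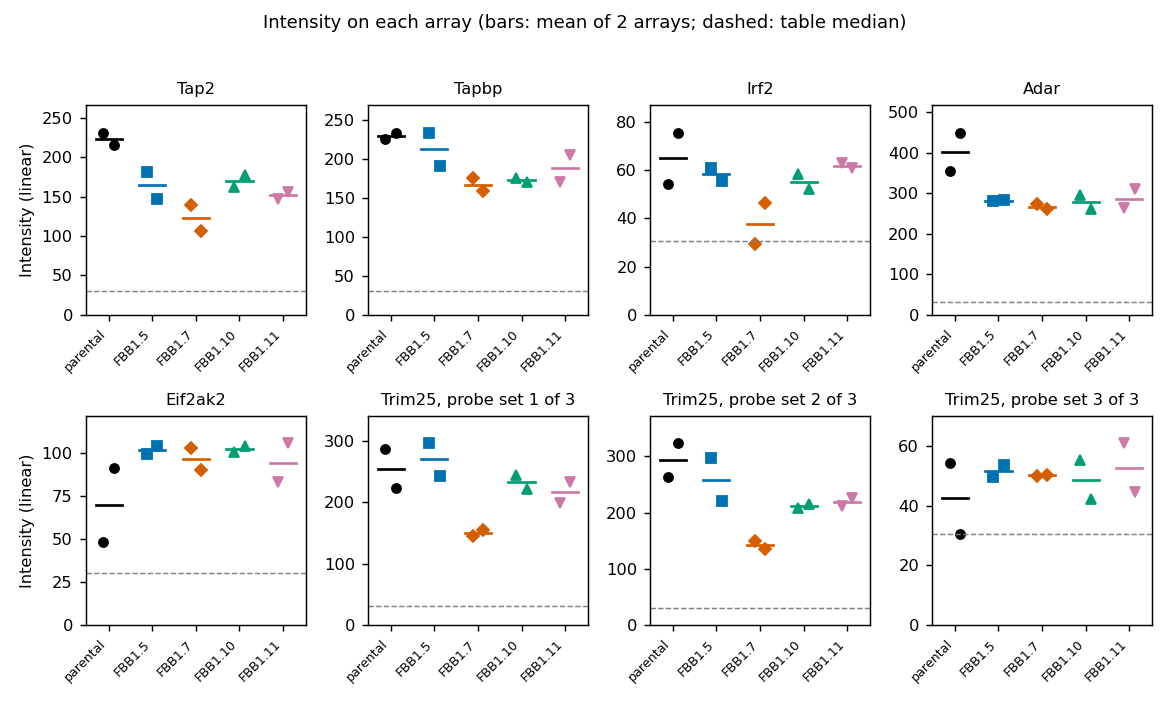
Intensity on each array (points; short bars mark line means, the dashed line the table median, linear axes start at 0) of the genes that passed against parental, with all 3 Trim25 probe sets, and of Eif2ak2, by line. Both FBB1.7 arrays of Tap2, Irf2 and the 2 brighter Trim25 probe sets lie below all other arrays, and both parental arrays of Adar and Tap2 lie above all tagged arrays.

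Eif2ak2, PKR, did not pass, and its parental arrays lay far apart. It read 48.0 and 90.9 on the parental arrays, 82.9 and 106 in FBB1.11, 100.4 and 104 in FBB1.10, 103 and 89.8 in FBB1.7 and 99.4 and 104 in FBB1.5. Parental 1 was far below the other 9 arrays, which overlapped. Its difference did not pass, at 0.41 in FBB1.11 (adjusted p = 0.42), 0.51 in FBB1.10 (0.20), 0.44 in FBB1.7 (0.17) and 0.51 in FBB1.5 (0.21). Without parental 2, so that parental 1 stood alone for the line, Eif2ak2 passed in FBB1.10 (adjusted p = 0.014), FBB1.7 (0.0071) and FBB1.5 (0.013). With the actin ratio as a covariate it passed in FBB1.7 (0.029) and FBB1.5 (0.038). A dimmer Eif2ak2 probe set stood below parental instead, at -0.11 in FBB1.11, -0.48 in FBB1.10, -0.38 in FBB1.7 and -0.14 in FBB1.5, and did not pass (lowest adjusted p 0.26), so the probe sets of this gene disagree.

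No effector passed in any comparison. The 6 tested effectors, Ifit3, Rsad2, Bst2, Xaf1, Parp9 and Parp14, had 4 of 6 below 0 in FBB1.7. Rsad2 had line means of 79.4 ± 3.25 in parental cells, 82.1 ± 3.28 in FBB1.11, 87.6 ± 3.60 in FBB1.10, 95.4 ± 0.0780 in FBB1.7 and 70.3 ± 7.41 in FBB1.5. Its other bright probe set ordered the lines differently, with 79.9 ± 0.247 in parental cells, 70.5 ± 9.49 in FBB1.11, 86.8 ± 17.8 in FBB1.10, 81.3 ± 7.58 in FBB1.7 and 92.3 ± 11.5 in FBB1.5. Bst2 had 118 ± 2.71 in parental cells and 95.1 ± 7.79 in FBB1.7 (log2 difference -0.27, adjusted p = 0.21).

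Set as a mean of the 4 subclones against parental in a fit of 5 line means, 2 of the 22 genes were lower and 0 higher, where 3.77% of all tested genes passed, 1.95% as lower and 1.82% as higher. Adar was 1.41-fold lower (log2 difference -0.50 ± 0.099, limma's adjusted p = 0.014) and Tap2 1.44-fold lower (-0.52 ± 0.11, adjusted p = 0.016). This fit treats the 4 clones as fixed. Without the trend of the variance on intensity both of these calls ended, and with no intensity filter that of Tap2 ended as well. With the line as a random block, 0 of the 22 genes passed limma's test, as did 0.0% of all genes, and 4 of the 22 had an unadjusted p under 0.05, beside 8.35% of all genes. The adjusted p of Adar was then 0.32 and that of Tap2 0.42. The line-mean call of Adar ended without parental 2 (0.22), without the subclone FBB1.7 (0.059) and with the actin covariate (0.22). With the line as a block, Adar passed without parental 1 (0.048). That of Tap2 ended without parental 1 (0.069), without parental 2 (0.066), without the subclone FBB1.7 (0.074) and with the actin ratio (0.14).

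Over the 22 tested genes, each by its brightest probe set only, 6 had line means below parental in all 4 subclones (27.3%, beside 22% of all tested genes), namely Adar, Irf1, Irf2, Tap1, Tap2 and Tapbp. Another 5 were above parental in all 4 (22.7%, beside 23.1%), namely B2m, Eif2ak2, H2-K1, Parp9 and Stat2. Tagged and parental arrays did not overlap for 2 of 22 (9.09%, beside 10.2%), Adar and Tap2. Both FBB1.7 arrays lay below the other 8 for 4 of 22 (18.2%, beside 10%), Irf2, Irf9, Tap2 and Trim25. The first 3 of these shares are near those of all genes.

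The summed mast cell and fibroblast markers also differed from parental in FBB1.7, as they did in FBB1.10 and FBB1.11. Of 7 mast cell markers 5 lay above the table median on average, and their summed intensity was 5397 to 6528 on the parental arrays, 1680.5 to 1713 in FBB1.11, 2064 to 2584 in FBB1.10, 812 to 929 in FBB1.7 and 4923 to 6266 in FBB1.5. Most of that sum was Mcpt2, while the defining receptor genes Fcer1a and Ms4a2 lay at or below the median on every array. The fibroblast markers, 4 of 6 above the median with Col1a1 and Dcn below it on all arrays, summed to 825 to 896 in parental cells, 1076 to 1084 in FBB1.11, 1062 to 1090.2 in FBB1.10, 1143 to 1218 in FBB1.7 and 523 to 541 in FBB1.5, and most of that sum was Thy1. The summed erythroid markers were 9561 to 10330.4 in parental cells and 8706 to 9031 in FBB1.7. Of the macrophage and dendritic markers, 7 of 11 lay above the median, with Mpeg1, Ctss and Itgam below it on all arrays. That list summed to 646 to 653 in parental cells, 663 to 718 in FBB1.11, 639 to 698 in FBB1.10, 672 to 715 in FBB1.7 and 623 to 669 in FBB1.5. The B lymphoid markers summed to 167 to 230.2 in parental cells, 230.3 to 248 in FBB1.7 and 217 to 270 in FBB1.5. The T and NK markers summed to 122 to 178 in parental cells and 130 to 162 in FBB1.7. The part of these markers in the FBB1.7 differences was not tested.

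The rest of the pathway was read from a wider list. This list of 102 genes of interferon production, signalling, response and antigen presentation had 85 genes with a probe set of their own, of which 63 lay above the table median and 68 were tested. The interferon genes Ifna1, Ifna2, Ifnb1 and Ifng had no mean over the 10 arrays above the median, with Ifnb1 above it on 3 single arrays, and Ifna4 ranged from 16 to 65.9. The receptor subunits were measured on every array, with Ifnar1 at 74.3 to 99.7, Ifnar2 at 127 to 259, Ifngr1 at 239.7 to 316 and Ifngr2 at 71.6 to 97.1, and none of the 4 passed in any comparison. In FBB1.7, 6 of the 68 rose and 5 fell (16.2% against 10.7% of all genes). In FBB1.10, 3 rose (4.41%, beside 1.81% of all genes), and in FBB1.5, 1 rose and 1 fell (2.94%, beside 2.38%). By limma 0 passed in FBB1.11 (beside 0.184%), with 8 of 68 at an unadjusted p under 0.05, where 11.9% of all genes were. Between the subclones 11 of the 68 differed (16.2%, beside 8.07% of all genes).

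Chaperones of class I folding were higher in FBB1.7 and FBB1.10. Calr, calreticulin, had 3345 ± 184 in parental cells, 3601 ± 256 in FBB1.11, 5043 ± 159 in FBB1.10, 4764 ± 200.5 in FBB1.7 and 2922 ± 38.3 in FBB1.5. It was higher in FBB1.7 (log2 difference 0.51 ± 0.062, limma's adjusted p = 0.00019) and in FBB1.10 (0.59 ± 0.062, adjusted p = 0.0003), on all 3 of its probe sets. Pdia3, the disulfide isomerase ERp57 of the loading complex, had 976 ± 33.3 in parental cells and 1188 ± 32.4 in FBB1.11, 1506 ± 65.7 in FBB1.10, 1519 ± 70.6 in FBB1.7 and 977 ± 97.3 in FBB1.5. It was higher in FBB1.10 (0.62 ± 0.083, adjusted p = 0.0019) and FBB1.7 (0.63 ± 0.083, adjusted p = 0.00032). The FBB1.10 calls of Calr and Pdia3 ended without the trend of the variance on intensity (limma's adjusted p = 0.12 for each), while their FBB1.7 calls held. Canx, calnexin, followed with 2516 ± 12.1 in parental cells, 2993 ± 33.5 in FBB1.7 (0.25, adjusted p = 0.030) and 3136 ± 295 in FBB1.10 (0.31, adjusted p = 0.030), and either call ended in 9 of 19 alternatives. For the mean of the 4 subclones Calr stood at 0.25 (adjusted p = 0.012) and Pdia3 at 0.38 (adjusted p = 0.0063). The first ended without parental 1 (0.070), without the subclone FBB1.7 (0.17) or without FBB1.10 (0.18), and the second without parental 2 (0.058), without the subclone FBB1.7 (0.074) or with the actin covariate (0.11). Both calls for the mean also ended without the trend of the variance on intensity, and that of Calr with quantile normalization or no intensity filter. These chaperones also fold other glycoproteins, so they are not specific to class I molecules.

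All 3 measured receptor kinase genes were lower in FBB1.7, and each of these calls ended with the actin ratio as a covariate. Tyk2, a kinase of the type I interferon receptor, had 299.9 ± 8.47 in parental cells, 263 ± 9.70 in FBB1.11, 252 ± 2.60 in FBB1.10, 204 ± 19.3 in FBB1.7 and 231 ± 12.4 in FBB1.5. It passed in FBB1.7 (-0.52 ± 0.11, adjusted p = 0.0067), and not without FBB1.7 2 (0.088) or with the actin covariate (0.094). Jak1, shared by both receptor types, had 566 ± 20.5 in parental cells, 456 ± 3.47 in FBB1.11, 470.4 ± 28.2 in FBB1.10, 409 ± 20.9 in FBB1.7 and 406 ± 39.9 in FBB1.5. It passed in FBB1.5 (-0.47 ± 0.10, adjusted p = 0.027), in FBB1.7 (-0.45, adjusted p = 0.010) and for the mean of the subclones (-0.37, adjusted p = 0.020), on 1 of its 3 probe sets, and each of these calls ended without parental 2 (0.11, 0.054 and 0.16). The FBB1.5 call also ended without FBB1.5 2 (0.21), the FBB1.7 call without FBB1.7 2 (0.099) or with the actin covariate (0.16), and the mean without the subclone FBB1.7 (0.084) or with that covariate (0.23). Jak2, chosen here after its values were seen, had 538 ± 46.1 in parental cells and lower means in every subclone. These were 439 ± 4.67 in FBB1.11, 421 ± 14.6 in FBB1.10, 382 ± 57.3 in FBB1.7 and 429 ± 74.7 in FBB1.5. Jak2 passed in FBB1.7 (-0.48, limma's adjusted p = 0.025), and not without parental 2, without FBB1.7 2 or with the actin covariate (0.39).

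Further response genes differed between the subclones in either direction. Psme1, an interferon-induced proteasome activator subunit, had 494 ± 0.0140 in parental cells, 507 ± 56.0 in FBB1.11, 428 ± 43.1 in FBB1.10, 445 ± 13 in FBB1.7 and 835 ± 30.2 in FBB1.5. It was 1.67-fold higher in FBB1.5 (log2 difference 0.74 ± 0.10, adjusted p = 0.0018). This call ended without the trend of the variance on intensity (limma's adjusted p = 0.060). Psme1 lies on chromosome 14, and in FBB1.5 the 440 tested genes of that chromosome had a median log2 difference of 0.24, against 0.01 for the other 12056; the part of this in the Psme1 value was not tested. Irf9 lies on the same chromosome and had 99.7 ± 31.6 in FBB1.5 against 76.6 ± 8.15 in parental cells (0.30, adjusted p = 0.45). Lgals3bp, a secreted glycoprotein gene induced by interferon, had 53.5 ± 1.52 in FBB1.7, beside 106 ± 23 in parental cells and 151 ± 2.72 in FBB1.5, and was 1.75-fold lower than parental in FBB1.7 (-0.80 ± 0.18, adjusted p = 0.012), and did not pass without parental 1 (0.072), FBB1.7 1 (0.082) or FBB1.7 2 (0.062).

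Ifitm2, a membrane protein gene that restricts virus entry, had 1354 ± 12 in parental cells, 1653 ± 147 in FBB1.11, 1126 ± 117 in FBB1.10, 1109 ± 125 in FBB1.7 and 1587 ± 6.10 in FBB1.5. It passed between the subclones (F test, adjusted p = 0.0013) and in no subclone against parental. The F test call ended without the trend of the variance on intensity (adjusted p = 0.060). Sting1, the adaptor of cytosolic DNA sensing, had 45.8 ± 18.3 in parental cells, 87.4 ± 27.7 in FBB1.11, 66.4 ± 19.6 in FBB1.10, 84.8 ± 2.42 in FBB1.7 and 26.7 ± 4.77 in FBB1.5. It differed between the subclones (adjusted p = 0.0058, or 0.085 without FBB1.5 1), and its rise in FBB1.7 (0.74, adjusted p = 0.049) ended in 10 of 18 alternatives, among them without parental 1 (0.27), FBB1.7 1 (0.21) or FBB1.7 2 (0.16). Irf2bp2, a corepressor that binds IRF2, had 3115 ± 165 in parental cells, 3504 ± 383 in FBB1.11, 3976 ± 546 in FBB1.10, 3128 ± 23.5 in FBB1.7 and 2768 ± 214 in FBB1.5, and differed between the subclones (adjusted p = 0.0102, or 0.078 without FBB1.5 1). Another of its probe sets was lower in FBB1.7 (-0.79, adjusted p = 0.00053), so the probe sets of this gene disagree. Ifi27 and Ptpn2 passed on a dimmer probe set but not on their brightest. That of Ifi27 was lower in FBB1.7 (-0.53, limma's adjusted p = 0.0079), FBB1.10 (-0.77, 0.0035) and the mean of the subclones (-0.46, 0.012). That of Ptpn2 was higher in FBB1.7 (0.57, adjusted p = 0.028). Isg20, Parp12, Tlr3 and Psmb8, named after their values were seen, completed the 15 genes of the list that passed in any comparison by their brightest probe set. Isg20 (0.51, adjusted p = 0.011) and Tlr3 (0.64, adjusted p = 0.029) were higher in FBB1.7, Parp12 was lower there (-0.52, adjusted p = 0.038), and Psmb8, an immunoproteasome subunit, differed between the subclones (adjusted p = 0.036). These calls ended in 3 of 19 alternatives for Isg20, 6 of 19 for Tlr3, 9 of 19 for Parp12 and 10 of 19 for Psmb8, and for each of the 4 without FBB1.7 1 (adjusted p 0.054 to 0.18) and without FBB1.7 2 (0.060 to 0.13). The Isg20 call also ended without parental 1 (0.072), those of Tlr3 and Parp12 without parental 1 (0.082 and 0.13) or parental 2 (0.075 and 0.083), that of Parp12 without either FBB1.11 array (0.051 to 0.052), and that of Psmb8 without FBB1.5 1 (0.29) or any 1 array of FBB1.10 and FBB1.11 (0.053 to 0.082).

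**Figure D4:**
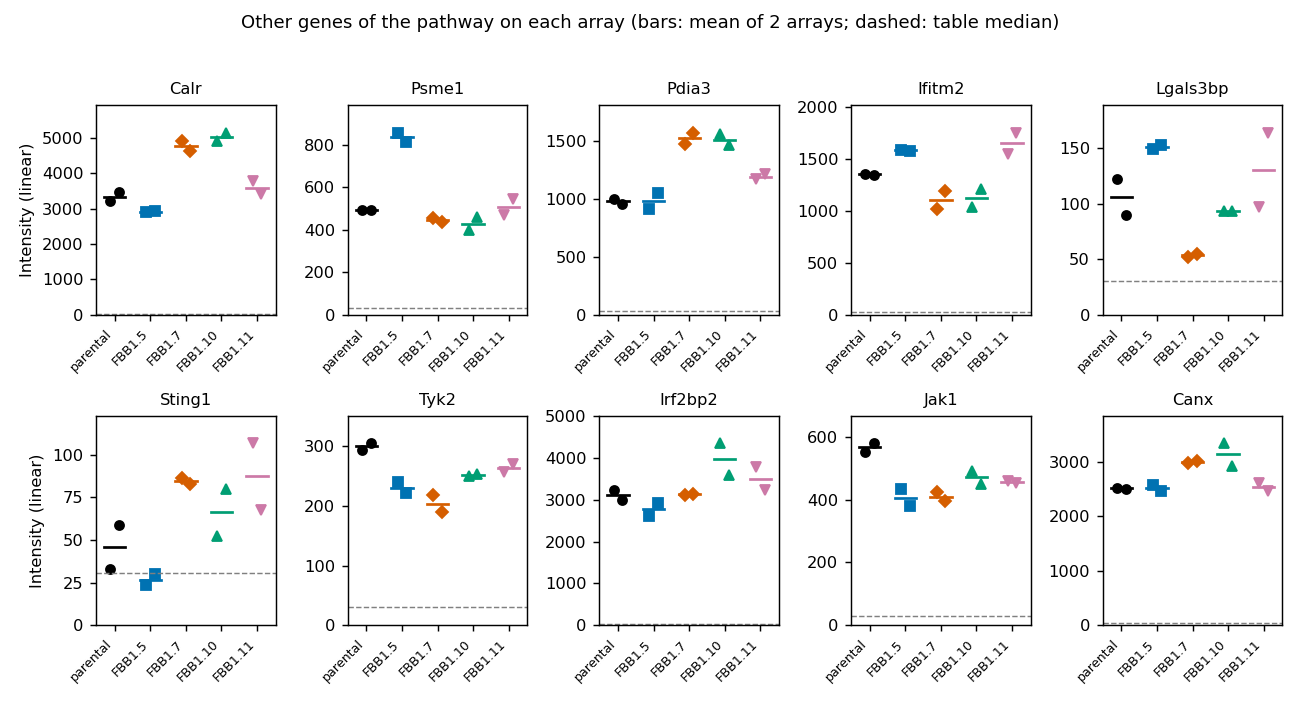
Intensity on each array (points; short bars mark line means, the dashed line the table median, linear axes start at 0) of 10 named genes of the wider pathway, by line. Calr, Pdia3 and Canx stand highest in FBB1.7 and FBB1.10, Psme1 in FBB1.5, and Lgals3bp and Tyk2 are lowest in FBB1.7.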

How the data were processed

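Total RNA of MEL cells was hybridised to 10 one-colour Affymetrix arrays as biotin-labelled cRNA made from oligo-dT primed cDNA, per the labels' protocols. The authors deposited linear probe set intensities. The probe summary, background correction and scaling behind them: not given in the sources used here. Line names and array numbers come from sample titles and source names. No arrays held identical values, and 2 arrays per line limit the precision.

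Of 45101 probe sets, 64 controls were left out; 34945 have 1 symbol in the platform annotation, 932 several and 9160 none, and only single-symbol probe sets name a gene. Of these, 34754 matched RefSeq (GRCm38.p6), and 0 symbols changed. Values were tested as log2(intensity + 16), so folds of dim genes are understated; array medians differed by 0.0623 on this scale and were not normalised further. Probe sets above the table median on at least 2 arrays were tested, 25061 in all, and a gene was read through its brightest one. Tests used R 4.3.3 and limma 3.58.1 (statmod 1.5.0): a fit of 5 line means with an intensity trend, 5 residual and 9.92 prior degrees of freedom, Benjamini-Hochberg at 0.05, a moderated F test with 3 contrasts between subclones, and the line as a random block (consensus correlation 0.211). The script was tested on simulated data. Figures were drawn in Python 3.11.15 with matplotlib 3.10.9.

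All 37 genes are accounted for; those that passed are given on every array, the rest by range. Of the wider list, the 10 passing genes with the smallest p are named by rule. Genes and lists were chosen with earlier results of these data known. Alternatives covered the pseudocount, normalisation, filter, variance trend, probe set choice, replicate block, each array and each subclone left out, and, added after the data were seen, the actin ratio as a covariate. The shared array numbers were checked and no pairing was seen: over 10 pairs, deviations of same-numbered arrays correlated at -0.16 to 0.18. With 2 arrays per line this check cannot exclude a batch shared by some of the lines.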

Additional observations from a re-analysis of the deposited data

Results flagged for a closer look

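These results differed between the 4 subclones by limma's moderated F test. Of the genes of the set, this was Trim25 (adjusted p = 0.0114), whose line means were 217 in FBB1.11, 234 in FBB1.10, 150.2 in FBB1.7 and 270.2 in FBB1.5, beside 255 ± 44.7 in parental cells (SD, n = 2). Of the wider pathway, Calr (adjusted p = 1.29e-05), Pdia3 (0.000658) and Canx (0.0113) were highest in FBB1.7 and FBB1.10. Psme1 (adjusted p = 0.000215) was highest in FBB1.5, and Ifitm2 (0.0013) was higher in FBB1.5 and FBB1.11 than in FBB1.7 and FBB1.10. Lgals3bp (adjusted p = 0.00223) was lowest in FBB1.7, Sting1 (0.00579) lowest in FBB1.5 and Irf2bp2 (0.0102) highest in FBB1.10.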

How the results depend on the processing

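Counts of the set's genes called in each comparison were small and moved with single choices. These counts include gained calls. With the actin ratio as a covariate, those in FBB1.7 were Tap2 and Trim25, still lower, and Eif2ak2, gained as higher, while Adar, Irf2 and Tapbp were lost. A count that kept its size could also hold other genes, as in FBB1.7 without parental 1, where Tapbp was lost and B2m gained as higher. In FBB1.7 the count of 5 became 2 without the trend of the variance on intensity, 3 with no filter, 3 with the actin ratio as a covariate and 1 to 5 when each array was left out. In FBB1.5 the count of 0 became 1 with the actin ratio and 0 to 2 when each array was left out. In FBB1.10 it became 1 with genes above the median on all 10 arrays and 0 to 1 when each array was left out, and in FBB1.11 likewise 0 to 1. Between the subclones the count of 1 became 0 without the trend, 2 with any probe set and 0 to 2 when each array was left out. For the mean of the subclones the count of 2 became 1 with no filter, 0 without the trend, 0 without the subclone FBB1.7, 1 with the actin ratio and 1 to 2 when each array was left out, while it became 3 without the subclone FBB1.5 (Tapbp gained) and 3 with any probe set (Trim25 gained). The 1 gene called with the actin ratio or without parental 2 is Eif2ak2, a gained call. With the line as a block it was 0 to 1. The 21 genes above the table median became 12 above the upper quartile and 20 to 22 when each array was left out. Fewer genes count above a higher limit by construction; elsewhere the cause was not tested.

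With the replicate number as a block, the counts were 4 in FBB1.7 and 0 in each other subclone, 1 between the subclones, 2 for the mean of the subclones and 0 with the line as a block. By their labels, arrays of different lines share only a number. Over the whole table the block moved the calls from 507 to 560 in FBB1.5, from 2519 to 2494 in FBB1.7, from 450 to 535 in FBB1.10 and from 47 to 121 in FBB1.11. Far larger shifts came without the trend of the variance on intensity. FBB1.10 then kept 1 call, FBB1.11 kept 8, FBB1.5 kept 22 and FBB1.7 kept 1187. For the mean of the subclones the calls fell from 887 to 25, and between the subclones from 1814 to 483. The alternatives were also counted over 65 results of both gene lists, each of which passed in the main fit or in an alternative. Here 1071 values kept their side of the threshold, 150 lost the call, 52 gained it and 0 reversed direction. F test results have no direction and could not reverse, and results that passed nowhere were left out. Signal also limits the set: 13 of its 35 measured genes were too dim to test.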
